A study of Mus musculus with 6 samples.

Results

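The HSF1 peaks of 2 mouse striatal cell lines were compared after 6 hours at 42 °C, with 6173 peaks in STHdhQ7/Q7 cells and 2161 in STHdhQ111/Q111 cells. These are 8334 of the 8886 HSF1 peaks of the series. A peak of one line was matched to a peak of the other where they shared at least 1 base, and all peaks of both deposited lists were used. Both lines were derived from mouse embryos, grown at 33 °C and used up to passage 15, and both took the same heat treatment and the same HSF-1 antibody. STHdhQ7/Q7 cells, called Q7 below, have the HdhQ7/Q7 genotype and express wild-type huntingtin. STHdhQ111/Q111 cells, called Q111, are homozygous for the HdhQ111 knock-in allele, whose product has a lengthened polyglutamine stretch, the kind of change that causes Huntington's disease. Each line was represented by 1 chromatin immunoprecipitation sequencing (ChIP-seq) library at 42 °C, so no value below has a replicate check, and a difference between the libraries cannot be told apart from a difference between the lines. The number of reads behind each list is unknown. Intervals on shares are 95% Wilson intervals, which cover counting error only.

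HSF1 is the transcription factor that switches on chaperone genes when proteins unfold. It is mostly a monomer in unstressed cells, and on heating it forms trimers that bind repeats of a short motif, the heat shock element, in promoters and enhancers. The STHdh lines are conditionally immortalised striatal progenitors, and their cell type could not be checked against marker genes from peak lists. Expanded huntingtin misfolds and aggregates, and HSF1 targets include chaperones that act on such proteins. The design addresses whether HSF1 occupies the same places in cells with wild-type and with expanded huntingtin. Peaks are given by their mm9 positions, counted from 1. Genes and sequences under the peaks were not analysed here.

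A Q7 peak lay over most Q111 peaks, whereas a Q111 peak lay over a minority of Q7 peaks. A Q7 partner was found for 1781 of 2161 Q111 peaks (82.4%), and a Q111 partner for 1773 of 6173 Q7 peaks (28.7%). The Q7 list is the longer, and when it was cut to its top 2161 peaks by score the shares became 64.0% of Q111 and 63.5% of Q7 peaks. Most matches were simple: 1737 peaks of each line had exactly 1 partner in both directions, and these 1737 pairs carry the rank and width comparisons below. The other matches involved 17 Q7 peaks that spanned 2 or more Q111 peaks and 10 Q111 peaks that spanned 2 or more Q7 peaks.

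Peaks without a partner were seldom near misses. The 4400 unmatched Q7 peaks lay a median of 209 kb from the closest Q111 peak, and 69 of them (1.57%) lay within 1 kb of one. The 380 unmatched Q111 peaks lay a median of 85.1 kb from the closest Q7 peak, with 12 (3.16%) within 1 kb. Unmatched peaks were narrower than matched ones in both lists, with medians of 461.5 against 599 bases in Q7 and 365 against 460 bases in Q111. Unmatched peaks also scored lower, with medians of 142.7 against 571.1 in Q7 and 120 against 248 in Q111. They were rarely occupied before heating as well. Neither width nor 33 °C occupancy was compared between matched and unmatched peaks of equal score. A 33 °C peak of either line lay under 20 unmatched Q7 peaks (0.455%, 0.294 to 0.701) and 13 unmatched Q111 peaks (3.42%, 2.01 to 5.76). The shares were 16.5% among matched peaks of Q7 (14.8 to 18.3) and 16.6% among those of Q111 (14.9 to 18.4). Of the 13 unmatched Q111 peaks with a 33 °C peak, all 13 had one of Q111 and 1 had one of Q7. Of the 20 unmatched Q7 peaks with a 33 °C peak, 17 had one of Q7 and 3 one of Q111.

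The strongest sites of one line were almost always found in the other, and somewhat over 50% of them were among the strongest there. All of the 100 highest-scoring Q7 peaks overlapped a Q111 peak, and all of the 100 highest-scoring Q111 peaks overlapped a Q7 peak. Of each list's 100, 53 overlapped one of the other list's 100 (53.0%, 43.3 to 62.5). With the 500 highest peaks of each list, 280 Q7 peaks (56.0%, 51.6 to 60.3) and 283 Q111 peaks (56.6%, 52.2 to 60.9) were in common. With 1000, the shares were 62.3% of the Q7 and 62.7% of the Q111 peaks. Column 5, the peak's score as the authors deposited it, was used here only to order peaks within a list.

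To compare the order of sites, both peaks of each pair were ranked over the same 1737 pairs, from 1 for the highest score to 1737. The Spearman correlation of the 2 rankings was 0.53 (n = 1737 pairs). It is a description across sites of 1 library a side, which share chromatin and depth within each library. The median distance between the ranks of a pair was 296 places, or 17.0% of the pairs, with quartiles of 123 and 550. Of the 434 pairs in the highest quartile of Q7, 244 (56.2%) were in the highest quartile of Q111 and 24 (5.53%) in its lowest. Of the 435 pairs in the lowest quartile of Q7, 200 (46.0%) were in the lowest of Q111 and 27 (6.21%) in its highest. In the 2 middle quartiles of Q7, 33.9% and 30.4% of pairs stayed in the corresponding Q111 quartile. Agreement between the lines without heat shock was similar in size: over 161 pairs at 33 °C the correlation was 0.52.

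**Figure D1:**
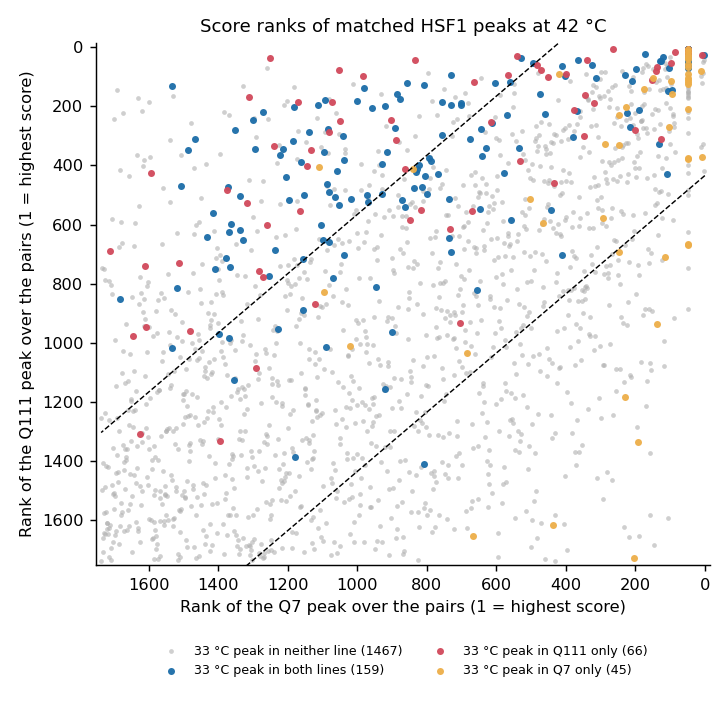
Rank of the Q111 peak (vertical axis) against rank of the Q7 peak (horizontal axis) for 1737 matched pairs at 42 °C, with rank 1 at the upper right, and colours for the lines that had a peak at the site at 33 °C. Dashed lines mark a rank difference of 25% of the pairs. Sites with a 33 °C peak in both lines or in Q111 only lie mostly toward the upper left, where Q111 ranks are higher.

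The top of the Q7 ranking was blunted by ties, since 73 Q7 peaks and 12 Q111 peaks shared a score of exactly 3100. All 85 Q7 peaks that scored 3100 or more were in one-to-one pairs. Their Q111 partners ranked between 6.5 and 886, with a median of 66, and 11 of them were among the 12 Q111 peaks at 3100. Conversely the Q7 partners of those 12 Q111 peaks ranked between 49, the average place of the tied Q7 peaks, and 263.

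The pairs with the smallest sums of ranks were 3 with distinct ranks, followed by 11 tied at 3100 in both lists. The 3 come first because their Q7 scores, 3176 to 3209, exceed 3100. Scores ran up to 3217 in Q7, so 3100 is not their upper limit. Why 73 Q7 peaks share that score is unknown, so the 3 cannot be said to be stronger than the 11. At chr18:61050671-61051643 the Q7 peak ranked 2 and its Q111 partner 28. At chr12:111933990-111935076 the ranks were 7 in Q7 and 27 in Q111, and at chr10:58797645-58798360 they were 3 and 44. Of these 3 sites, the one on chromosome 18 held a 33 °C peak in both lines, the one on chromosome 12 in Q111 alone, and the one on chromosome 10 in neither. The 11 tied pairs all stand at rank 49 in Q7 and 6.5 in Q111, and their order among themselves cannot be told. By Q7 position, they lay at chr1:55144090-55145522, chr2:174683737-174684373, chr4:40668788-40670483, chr5:125872961-125874491, chr5:150437897-150439593, chr8:75799566-75800333, chr9:40608638-40609973, chr10:121340887-121341981, chr15:75772747-75773680, chr15:81229562-81230934 and chr17:45709152-45711784. All 11 held a 33 °C peak, 9 of them in both lines, 1 in Q7 only (75772747 on chromosome 15) and 1 in Q111 only (on chromosome 2).

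About as many pairs ranked far higher in one line as in the other. A rank difference of more than 434.25 places, 25% of the pairs, was reached by 604 of 1737 pairs (34.8%). Of these, 306 ranked higher in Q7 (17.6%) and 298 higher in Q111 (17.2%). Because both rankings use the same pairs, a site that moves up in one must push others down, and near-equal numbers follow in part from this. The limit cuts a continuous range. The pair just past it on the Q7 side, at chr10:80346353-80346928, differed by -435.5 places (Q7 minus Q111), and the pair just short of it, at chr11:86427546-86427987, by -434. On the Q111 side the pair at chr13:109053381-109053701 differed by 435 and that at chr4:55744814-55745359 by 432.

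The 8 pairs with the largest difference toward Q7 lay on 6 chromosomes and had Q7 scores between 1165 and 2722 but Q111 scores of at most 104, near the low end of that list. The first, at chr1:193013321-193014290, ranked 145 of the pairs in Q7 and 1683 in Q111. In the whole lists this was place 147 of 6173 and place 2073 of 2161. The Q7 peak there was 970 bases wide and the Q111 peak 468. At chr15:66675407-66675962 the ranks were 204 and 1728, and this was the one site of the 8 with a 33 °C peak, in Q7 alone. At chr14:34165125-34166008 the Q7 peak ranked 105 and the Q111 peak 1593. The others lay at chr18:62993466-62993843 (ranks 190 and 1651.5), chr6:99853797-99854396 (219 and 1655), chr17:56944134-56945029 (158 and 1581), chr17:17982163-17982850 (232 and 1621) and chr15:32252083-32253015 (431 and 1736.5). These sites stood high in Q7 and were barely called in Q111.

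The 8 pairs with the largest difference toward Q111 had Q111 scores between 805 and 1134 and Q7 scores of at most 180, just under the median of the Q7 list (181). Over the whole Q7 list they held places 3109 to 5109 of 6173, whereas the 8 sites above held places 1890 to 2160.5 of 2161 in Q111. The largest lay at chr18:12154429-12154689, where the Q7 peak ranked 1692 and the Q111 peak 144. In the whole lists it took place 4887 of 6173 in Q7 and place 155 of 2161 in Q111. Its Q111 peak, from 12154313 to 12154948, was 636 bases wide and contained the Q7 peak of 261 bases. On chromosome 2, 2 of the 8 were found: chr2:148317786-148318261, with ranks of 1701 in Q7 and 242 in Q111, and chr2:57034366-57034953, with ranks of 1532 and 130. The second was the only one of the 8 with a 33 °C peak, which it had in both lines. The remaining 5 lay at chr19:28523386-28523749 (1630 and 173), chr10:8637206-8637802 (1673 and 221), chr6:41559625-41560146 (1600 and 184), chr15:102060918-102061515 (1619 and 216) and chr5:139420886-139421356 (1529.5 and 165). None of the 8 had another peak of its own list within 20 kb.

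Across all pairs, occupancy before heating went with rank in Q111 more than with rank in Q7. Occupancy at 33 °C comes from the other 2 HSF1 libraries and was not used to match or rank the pairs. Of the 298 pairs that ranked far higher in Q111, 102 (34.2%, 29.1 to 39.8) held a Q111 peak at 33 °C, against 1 of the 306 that ranked far higher in Q7 (0.327%, 0.0577 to 1.83) and 225 of all 1737 pairs. The Q7 peaks at 33 °C gave the same order, with 72 of 298 (24.2%, 19.6 to 29.3) and 11 of 306 (3.59%, 2.02 to 6.32) against 204 of 1737. Outside a window of chromosome 13 from 21 to 24 Mb described below, the Q111 share was 69 of 254 pairs (27.2%, 22.1 to 32.9), against 182 of all 1671 pairs there (10.9%). With dense clusters left out as well it was 51 of 229 (22.3%, 17.4 to 28.1), against 146 of all 1569 remaining pairs (9.31%).

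Each ranking was also taken on its own. In Q111, 174 of the 434 pairs of the highest quartile held a 33 °C peak of either line (40.1%, 35.6 to 44.8), followed by 15.9%, 4.38% and 1.84% in the next 3 quartiles. In Q7 the decline was shallower and not steady: 23.3% (19.5 to 27.5), 14.3%, 16.8% and 7.82%.

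**Figure D2:**
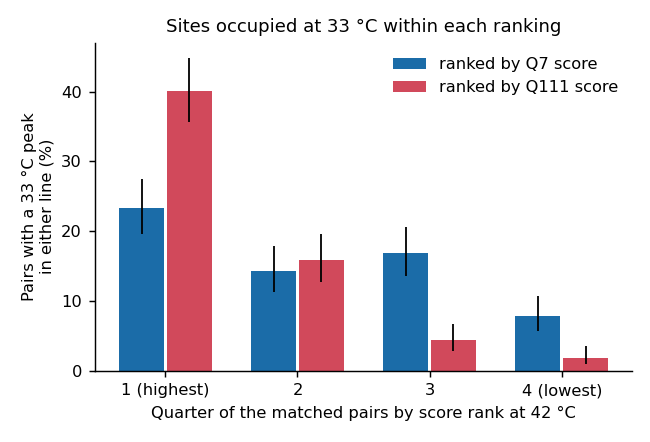
Share of matched pairs with a 33 °C peak in either line (vertical axis, percent) by quartile of the 42 °C score rank (horizontal axis), for the Q7 ranking and the Q111 ranking of the same 1737 pairs; bars on the columns are 95% Wilson intervals. The share fell from 40.1% to 1.84% in the Q111 ranking and from 23.3% to 7.82% in the Q7 ranking.

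Pairs with a 33 °C peak in Q111, alone or with Q7, ranked higher in Q111 than in Q7 at 42 °C more often than the other pairs did. Where both lines held a 33 °C peak (159 pairs), the median rank was 821 in Q7 and 340 in Q111, and 139 of them (87.4%, 81.4 to 91.7) ranked higher in Q111. The 66 pairs with one in Q111 only had medians of 825.75 and 266.5, and 61 ranked higher in Q111 (92.4%, 83.5 to 96.7). The 45 pairs with one in Q7 only had median ranks of 116 in Q7 and 329 in Q111, and 14 of 45 ranked higher in Q111 (31.1%, 19.5 to 45.7). The 1467 pairs with none had medians of 904 and 989, and 44.2% ranked higher in Q111 (41.7 to 46.8), a share within the interval of the pairs with a peak in Q7 only. Outside the chromosome 13 window the order held, with 112 of 132, 45 of 50, 13 of 44 and 630 of 1445 pairs ranking higher in Q111. With 1 library per line and temperature, features that a line's 2 libraries share for other reasons cannot be told apart from its binding.

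**Figure D3:**
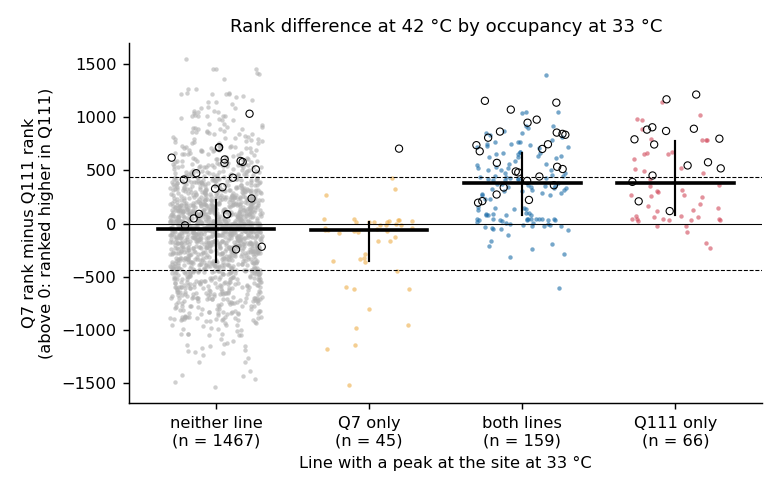
Q7 rank minus Q111 rank at 42 °C (vertical axis, places out of 1737) for pairs grouped by the line that held a peak at 33 °C (horizontal axis); thick lines are medians, vertical lines span the quartiles, open circles are pairs in the chromosome 13 window, and dashed lines mark 25% of the pairs. Medians are -51.5 places with no 33 °C peak, -65.5 with one in Q7 only, 385 with one in both lines and 377 with one in Q111 only.

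Within the pairs that had a 33 °C peak, the 2 rankings at 42 °C were correlated at 0.64 (n = 270 pairs), and within those that had none at 0.52 (n = 1467). Pairs far apart in rank made up 42.2% of the first class and 33.4% of the second. Outside the chromosome 13 window, 80 of 226 pairs of the first class were far apart (35.4%), with a correlation of 0.68. In the second class outside the window, 185 of 1445 pairs ranked far higher in Q111 and 295 far higher in Q7.

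Neighbouring sites tended to differ in the same direction. Of 146 adjacent pairs of sites within 10 kb of each other, 110 (75.3%) had rank differences of the same sign. Outside the chromosome 13 window this was 72 of 108 (66.7%), and it fell to 57.0% of 330 at up to 100 kb and to 52.9% of 1090 at up to 1 Mb. Outside the window, 102 pairs lay in dense clusters, where a peak had 3 or more others of its own list within 20 kb in at least 1 line. Their median rank difference was 39.5 places and 56.9% ranked higher in Q111, against -22 places and 47.3% of the 1569 pairs elsewhere. A 33 °C peak was held by 37.3% of the dense pairs and 12.0% of the others. The 64 dense pairs without one had a median difference of -111 places, against -52.5 for 1381 pairs without a 33 °C peak elsewhere.

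Sharing was similar on most chromosomes, and chromosome 13 stood apart. The share of Q7 peaks with a Q111 partner was 28.7% over the genome and ranged from 22.1% on chromosome 8 (90 of 407 peaks, 18.4 to 26.4) to 44.7% on chromosome 13 (143 of 320, 39.3 to 50.2). After chromosome 13 came chromosome 5 with 34.3% (129 of 376, 29.7 to 39.2) and chromosome 6 with 31.7% (108 of 341, 27.0 to 36.8). The lowest after chromosome 8 were chromosome 16 with 22.9% (49 of 214, 17.8 to 29.0) and chromosome 12 with 23.9% (49 of 205, 18.6 to 30.2). The interval lay above the genome-wide share on 2 of 20 chromosomes, 13 and 5, and below it on 1, chromosome 8. The number of Q7 peaks per Q111 peak was 2.86 over the genome, highest on chromosome 8 (3.63) and lowest on chromosome 13 (1.87).

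**Figure D4:**
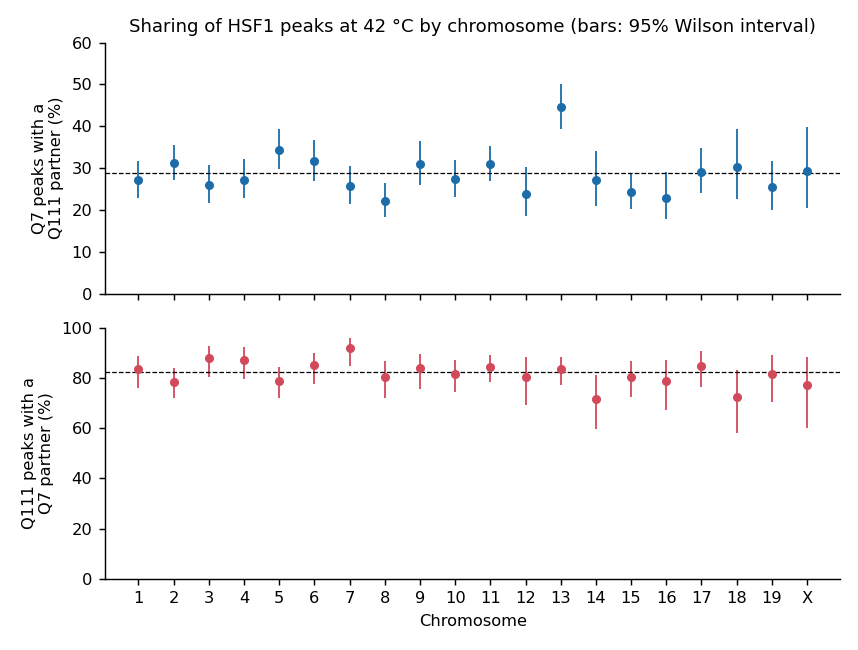
Share of Q7 peaks with a Q111 partner (upper panel) and of Q111 peaks with a Q7 partner (lower panel), in percent, on each chromosome at 42 °C; bars are 95% Wilson intervals and dashed lines the genome-wide shares of 28.7% and 82.4%. Chromosome 13 reaches 44.7% in the upper panel and lies near the genome-wide share in the lower panel.

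The excess on chromosome 13 lay in 1 stretch. From 21 to 24 Mb this chromosome held 78 Q7 and 77 Q111 peaks, of which 73 and 71 had a partner. Without the stretch, 70 of the 242 remaining Q7 peaks of chromosome 13 were shared (28.9%, 23.6 to 34.9), against 27.8% on the other autosomes. The 66 one-to-one pairs in the stretch had a median rank of 1074.5 in Q7 and 376.5 in Q111, and 63 of them ranked higher in Q111. A difference of over 25% of the pairs toward Q111 was reached by 44 of the 66, against 17.2% of all pairs, and toward Q7 by none (0 of 66; the lowest difference was -244). The 22 pairs of the stretch with no 33 °C peak had a median difference of 422.5 places toward Q111, and the 44 with one had a median of 703.5. The rest of chromosome 13 had 68 pairs with a median difference of -37.5, close to the -17 of the other autosomes.

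Chromosomes 5 and 8 kept their places above and below the genome-wide share among the stronger Q7 peaks. Of Q7 peaks at or above the median score of the list, 50.5% had a Q111 partner over the genome. The share was 60.3% of 194 such peaks on chromosome 5, 38.8% of 201 on chromosome 8 and 39.3% of 107 on chromosome 16. It was highest on the X chromosome, at 76.7%, but over only 30 peaks.

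The share of Q111 peaks with a Q7 partner was highest on chromosome 7, where 92 of 100 Q111 peaks had a Q7 partner (92.0%, 85.0 to 95.9), followed by chromosome 3 with 88.0% (95 of 108) and chromosome 4 with 87.3% (96 of 110). It was lowest on chromosome 14, with 46 of 64 (71.9%, 59.9 to 81.4), followed by chromosome 18 with 72.3% (34 of 47) and the X chromosome with 77.4% (24 of 31). The interval lay above the genome-wide 82.4% on chromosome 7 and below it on chromosome 14, and included it on the other 18.

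The correlation of ranks was lowest on chromosome 18 (0.32, 34 pairs) and chromosome 13 (0.35, 134 pairs) and highest on chromosome 8 (0.67, 90 pairs). The median rank difference was toward Q111 on 7 of 20 chromosomes. It was 254.5 places on chromosome 13, 136.5 on chromosome 18 and 120.5 on chromosome 14, and it was farthest toward Q7 on chromosome 9, at -167 (89 pairs).

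Q7 peaks were wider than the Q111 peaks they matched. Over the 1737 pairs the median width was 599 bases in Q7 (quartiles 489 and 731) and 458 bases in Q111 (361 and 561). The Q7 peak was the wider in 1452 pairs (83.6%, 81.8 to 85.3), the Q111 peak in 284, and 1 pair was equal. The median difference was 143 bases (quartiles 38 and 244), and the median ratio 1.31. The extra width lay on both sides, with a median of 66 bases beyond the left and 68 beyond the right edge of the Q111 peak, and 1069 Q111 peaks (61.5%) lay wholly inside their Q7 partner. Centres differed by a median of 45 bases (quartiles 20.5 and 78.5).

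The width difference was found at every level of the ranking. In the quartile of pairs with the highest mean rank the medians were 748.5 bases in Q7 and 584.5 in Q111, and in the lowest they were 501 and 368. The Q7 peak was wider in 82.0% to 86.4% of pairs in each of the 4 quartiles. Width followed score in both lists, with Spearman correlations over the pairs of 0.55 in Q7 and 0.54 in Q111. Equal ranks are not equal scores: the median score of matched peaks was 571.1 in Q7 and 248 in Q111. Widths were not compared between Q7 and Q111 peaks of equal score. The width difference moved with the rank difference as well. Where the site ranked far higher in Q7 the Q7 peak exceeded its partner in width in 96.1% of 306 pairs, with a median excess of 224.5 bases. Where it ranked far higher in Q111 it did so in 62.4% of 298 pairs, with a median excess of 47 bases. By chromosome, the Q7 peak was wider in 73.1% (chromosome 13) to 89.8% (chromosomes 16 and 19) of pairs.

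The 3 pairs with the largest excess of width in Q7 were at chr15:61363645-61365446, chr19:5841405-5843287 and chr1:87949253-87950863. The Q7 peaks measured 1802, 1883 and 1611 bases and their Q111 partners 439, 619 and 493. On chromosomes 15 and 1 the Q111 peak sat at one end of the Q7 peak, with centres 668.5 and 573 bases apart. The 3 pairs with the largest excess in Q111 were smaller differences. They were chr18:12154429-12154689, already named, chr14:51683445-51683777 (333 bases in Q7 and 706 in Q111) and chr4:127032413-127033024 (612 and 939). The last 2 did not differ by 25% of the ranks.

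Without heat shock the width order was the opposite. Over 161 pairs at 33 °C, the median width was 443 bases in Q7 and 576 in Q111, and the Q7 peak was wider in 16.1%. The 137 sites with 1 matched peak in each of the 4 HSF1 libraries show this at the same places. Median widths at 33 °C were 445 bases in Q7 (quartiles 379 and 545) and 576 in Q111 (505 and 709), and at 42 °C they were 595 in Q7 (489 and 789) and 507 in Q111 (439 and 651). At 90 of these 137 sites (65.7%) the Q111 peak was the wider at 33 °C and the Q7 peak the wider at 42 °C, and at 26 the Q111 peak was the wider at both. From 33 to 42 °C, Q7 peaks widened at these sites by a median of 161 bases, and the median change in Q111 was -51 bases. Scores differed between the lists too, with list medians at 33 °C of 157 in Q7 and 208 in Q111. At 42 °C the list medians were 181 and 207, but those of matched peaks were 571.1 and 248. Whether the width order follows the scores was not tested.

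**Figure D5:**
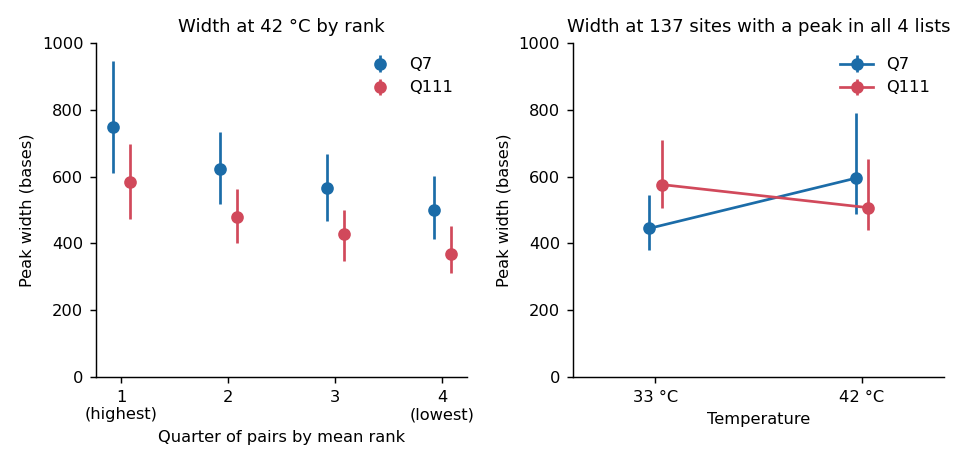
Peak width in bases (vertical axes). Left: matched pairs at 42 °C by quartile of mean rank, with medians as points and quartiles as bars. Right: the 137 sites with a peak in all 4 lists, at 33 and 42 °C. Q7 medians lie above Q111 medians in each quartile at 42 °C, while at the 137 sites Q111 is wider at 33 °C (576 against 445 bases) and Q7 at 42 °C (595 against 507).

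At some sites a broad peak of one line faced several narrow ones of the other. The widest Q7 peak of this kind, chr5:125869307-125871190, measured 1884 bases and covered 2 Q111 peaks of 836 and 464 bases. The next, chr11:68853675-68855556, measured 1882 bases and met 3 Q111 peaks of 536, 618 and 491 bases, the one Q7 peak with 3 partners. After it came chr3:96304029-96305742, of 1714 bases, with 2 Q111 peaks of 688 and 844 bases. In the other direction the 3 widest Q111 peaks with several partners were chr11:97849273-97850538 (1266 bases, over Q7 peaks of 522 and 618 bases), chr13:22031930-22033130 (1201 bases, over 529 and 416) and chr13:23610772-23611775 (1004 bases, over 533 and 355). The last 2 lie in the chromosome 13 stretch from 21 to 24 Mb.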

How the data were processed

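Each HSF1 library has 1 deposited peak list. Per the submitters' processing notes, MACS 1.4.0rc2 and the mouse build mm9 were used. Not given in the sources used here are the aligner, background, filters and depth. No list has a header. The score in column 5, as deposited by the authors, was taken as the peak's own value and used only to order or filter peaks within a list. Chromatin was fixed with 1% formaldehyde, amplified for 18 PCR cycles and cut at 200 to 300 bp, per the labels' protocols.

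Peaks were matched by 1 shared base with pandas 2.3.3 and numpy 2.4.6 under Python 3.11.15. Intervals and correlations came from scipy 1.17.1, and bedtools 2.31.1 gave the same counts. Tied scores took their average rank. With 1 library a side no test was run. The code recovered all planted matches on simulated data, in which sites lay far apart and each planted pair overlapped. Dense clusters and peaks with several partners were not simulated. Members and lists were chosen with earlier results of these data known. Named sites are the 8 pairs with the largest rank difference in each direction, the 6 with the smallest rank sum (14 with ties, listed after their values were seen), the 3 with the largest width difference in each direction, the 3 widest peaks of each list with several partners and the 3 chromosomes with the highest and lowest shares. The 2 IgG libraries, genes and heat shock elements were not analysed here.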

Additional observations from a re-analysis of the deposited data

Results flagged for a closer look

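The width difference between the lines had opposite signs at the 2 temperatures. The median of the Q7 minus the Q111 width was 143 bases over 1737 pairs at 42 °C and -131 bases over 161 pairs at 33 °C. With 1 library for each line and temperature the difference between these values was not tested, and the depth of the libraries is unknown. Widths were not compared between peaks of equal score at either temperature.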

How the results depend on the processing

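No paired analysis was possible because each group holds 1 library, and for the same reason no library could be left out. The shares, the rank correlation and the width measures were repeated 64 times as planned. A change of direction was looked for only in the median width difference, and none was found. Of the 64 repeats, 50 fell inside the 95% interval of the value in the text (for the correlation, within 0.05). The 16 named rank differences kept their direction in all 82 of 96 repeats that gave a value. These pairs were picked for the largest differences, so a kept direction is no added support. With the Q7 list trimmed to the length of the Q111 list, none of the 8 pairs toward Q111 was left, because their Q7 peaks score too low. With a minimum score of 100, 3 of the 8 toward Q7 were left. A minimum score of 100 moved the share of Q111 peaks with a Q7 partner to 84.2%. Trimming the Q7 list, which by construction removes its weak peaks, gave 64.0% of Q111 and 63.5% of Q7 peaks with a partner. Chromosome shares then ran from 51.9% on chromosome 16 to 84.6% on the X chromosome. Pairs far apart in rank made up 38.5%. The Q7 peak was wider in 86.8% of pairs, and the median width difference was 158 bases. Without dense clusters, 78.6% of Q111 and 27.2% of Q7 peaks had a partner, and the highest chromosome share was 32.7%, on chromosome 5. Without the chromosome 13 window it was 34.3%, also on chromosome 5. Without scores of 3100 or more, the rank correlation was 0.47 and 37.9% of pairs were far apart.

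Occupancy at 33 °C was repeated under 9 settings chosen after seeing the data, with ranks taken anew, and 21 of 27 values stayed within their interval. The share of pairs far higher in Q111 that held a Q111 peak at 33 °C, 34.2%, was 27.7% with peaks up to 500 bases apart, 41.9% with the Q7 list trimmed, 24.3% without dense clusters and 28.0% without the chromosome 13 window. The median rank difference of pairs with a 33 °C peak in both lines, 22.2% of the pairs, was 27.2% with the Q7 list trimmed and 26.1% without scores of 3100 or more. The cause of these shifts was not tested beyond what the settings remove. Unknown depth limits every share of peaks found in the other line.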
